A study of Mus musculus with 10 samples.

Results

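The genes described here encode the receptors with which myeloid cells sense microbes and damaged tissue: the Toll-like receptors, the NOD-like receptors with Aim2, and the C-type lectins, together with Cd14, Ly96 and Myd88. Members were taken by gene symbol, as every row whose name begins with Clec, Nlrp, Nlrc or Nlrx, or with Tlr and a digit, plus Nod1, Nod2, Naip2, Naip5, Aim2, Cd14, Ly96 and Myd88, with at least 10 reads summed over the 10 libraries. Of 24015 genes in the table, 76 carried such a name and 55 reached the minimum. Of the 21 that did not, 14 had no read at all. Tlr11 and Clec1a, with 7 reads each, fell just below the minimum, and Nlrp6 with 10 and Clec2l with 12 reads were the members just above it.

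Toll-like receptors bind microbial lipids, proteins and nucleic acids at the cell surface or in endosomes and signal through adaptors such as MYD88 to NF-kB and interferon regulatory factors. NOD-like receptors and AIM2 sense bacterial products or DNA in the cytosol, and some of them assemble inflammasomes that activate caspase-1. Many myeloid C-type lectins bind carbohydrates and signal through ITAM-bearing chains and the kinase SYK, while others carry an inhibitory ITIM and restrain such signals. Many of these receptors increase as myeloid precursors mature into neutrophils and macrophages.

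RNA was sequenced from MAF9 cells, bone marrow cells of C57BL/6 mice transduced with the MLL-AF9 fusion gene and grown in IMDM that held IL-3 at 10 ng/ml and 15% serum, and all 5 conditions shared this fusion, strain and medium. Cells were treated for 4 days, each inhibitor at its half-inhibitory dose, with MM-401, which blocks the binding of MLL1 to WDR5, with EPZ (EPZ5676), which inhibits the methyltransferase DOT1L, with MI-2 (MI-2-2 in the methods of the study), which blocks MENIN, or with iBET, and DMSO was the mock treatment. Each condition had 2 libraries, described as biological duplicates with no word on separate cultures or animals, so the p-values measure the spread between these libraries. The question put to these samples was how blocking MLL1, or cofactors of the fusion protein, alters the transcriptome of the leukemia cells.

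Libraries held 20394762 to 29473127 counted reads. DMSO replicate 2 stood apart from the other 9 libraries: it had 3630 reads on Y-linked genes against 0 to 2 elsewhere, and Xist stood at 4.65 normalised CPM there against 1026 to 2818 elsewhere. These are the marks of male cells in DMSO replicate 2 and of female cells in the other libraries. Every comparison with DMSO includes this difference. Normalised CPM are counts scaled to the TMM-corrected size of each library. The DMSO libraries also differed from each other in more receptor genes than other duplicates did. Of 37 members with a mean of at least 1 normalised CPM with DMSO, 12 were more than 2-fold apart, among them Tlr1, Tlr2, Tlr9, Nlrp3, Nlrp12, Clec4a2 and Clec4e, against 1 of 33 with MM-401, 6 of 41 with EPZ, 9 of 41 with MI-2 and 6 of 29 with iBET. Counts of called members against DMSO are given with and without this library.

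Promoters of 4 members are shown because the results turn on these genes. The first is Clec4b2, the member with the largest fitted rise in EPZ and MI-2. Clec4e lies further along the same row of Clec4 genes, past Clec4n and Clec4d. Its change against DMSO did not pass in the fit of all 10 libraries but did in some fits without 1 DMSO library. Clec12a and Nlrp12 are the members whose fall with iBET passed whichever library was left out. Each sequence is the 250 bases before the transcription start, 5′ to 3′ on the strand of the gene, from RefSeq (GRCm38.p6), and capitals mark GAGGAA, a core motif bound by the myeloid factor PU.1, or its complement TTCCTC. The windows lie at chr6:123172773-123173022 (plus strand) for Clec4b2, chr6:123289872-123290121 (minus strand) for Clec4e, chr6:129349994-129350243 (plus strand) for Clec12a and chr7:3249741-3249990 (minus strand) for Nlrp12.
Clec4b2: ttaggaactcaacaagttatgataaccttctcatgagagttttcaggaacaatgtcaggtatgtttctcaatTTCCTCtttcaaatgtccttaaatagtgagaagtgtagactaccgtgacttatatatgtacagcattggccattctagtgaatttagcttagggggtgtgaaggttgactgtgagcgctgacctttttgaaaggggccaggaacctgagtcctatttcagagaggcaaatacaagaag
Clec4e: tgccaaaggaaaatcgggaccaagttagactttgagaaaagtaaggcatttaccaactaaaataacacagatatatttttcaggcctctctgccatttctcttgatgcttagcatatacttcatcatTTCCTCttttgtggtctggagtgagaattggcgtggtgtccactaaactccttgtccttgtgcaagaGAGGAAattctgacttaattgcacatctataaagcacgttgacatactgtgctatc
Clec12a: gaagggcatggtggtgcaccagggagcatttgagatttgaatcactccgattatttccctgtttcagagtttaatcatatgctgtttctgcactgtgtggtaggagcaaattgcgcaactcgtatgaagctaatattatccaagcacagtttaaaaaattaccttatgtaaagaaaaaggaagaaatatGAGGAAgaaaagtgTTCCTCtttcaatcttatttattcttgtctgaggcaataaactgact
Nlrp12: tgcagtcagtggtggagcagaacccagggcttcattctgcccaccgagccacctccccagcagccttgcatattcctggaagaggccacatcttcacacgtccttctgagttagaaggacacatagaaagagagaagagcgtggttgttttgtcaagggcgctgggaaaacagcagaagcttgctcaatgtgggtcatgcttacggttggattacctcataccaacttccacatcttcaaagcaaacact
The Clec4b2 window held 1 match, those of Clec4e and Clec12a 2 each, and that of Nlrp12 none. A promoter was listed for 43 of the 55 members, 52 promoters in all, and 22 of these (42.3%) held GAGGAA on either strand, beside 23.3% of the 32851 promoters searched. The C/EBP motif TTGCNNAA was found in 11 of 52 (21.2%, beside 9.56% of all), and TATAAA in 10 of 52 (19.2%, beside 12.4%). A match describes letters in the window, not a bound site. Tlr2, Nod2, Nlrc4 and Clec4a2 rose with both EPZ and MI-2 and had no GAGGAA in their windows.

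The receptor genes took a larger share of all reads with EPZ and MI-2 and a smaller share with iBET. The 55 members held 0.121% and 0.124% of the reads with DMSO, 0.120% and 0.129% with MM-401, 0.174% and 0.221% with EPZ, 0.196% and 0.254% with MI-2, and 0.0855% and 0.0872% with iBET. All 4 EPZ and MI-2 libraries lay above the DMSO and MM-401 libraries, and both iBET libraries lay below them. In RNA from whole cultures, fewer cells of a type and less RNA per cell cannot be told apart.

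**Figure D1:**
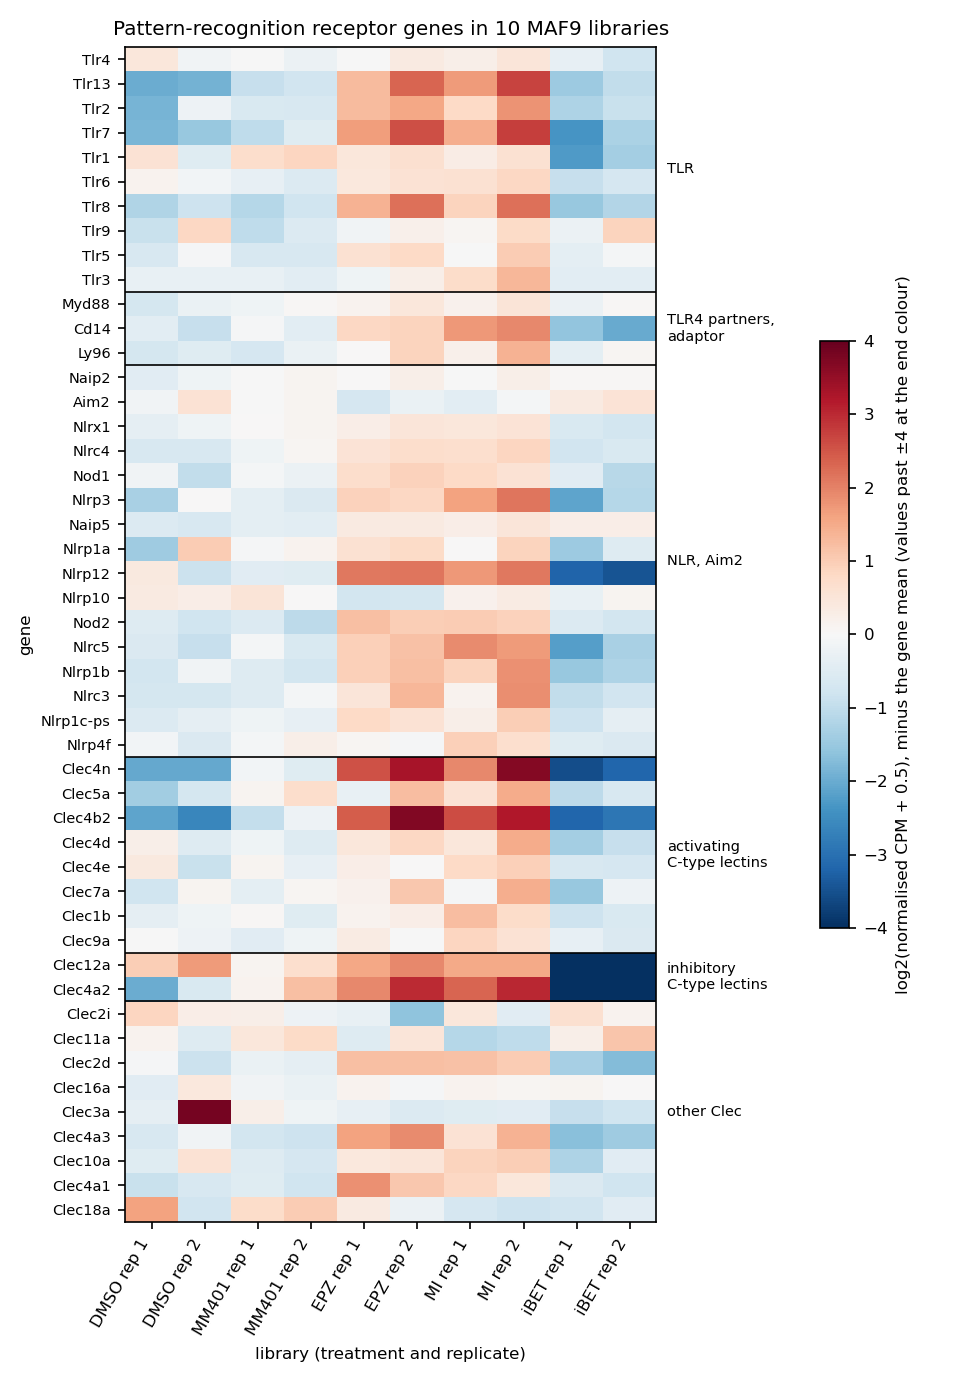
Level of the 48 tested members (rows, grouped by class) in the 10 libraries (columns), as log2(normalised CPM + 0.5) minus the mean of the gene over the libraries, where red is above and blue below that mean. The EPZ and MI-2 columns are red for most rows, the iBET columns are blue for Clec12a, Clec4a2 and Nlrp12, and Clec3a is darkest red in DMSO replicate 2.

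Differential expression was tested with edgeR (quasi-likelihood, Benjamini-Hochberg adjustment over all 12971 genes kept by the low-count filter), and a change was called at an adjusted p below 0.05. The filter kept 48 of the 55 members, and Clec4b1, Clec12b, Nlrp6, Clec2f, Clec3b, Clec4g and Clec2l were not tested. With EPZ 25 of the 48 rose and 3 fell (58.3% called), where 38.1% of all genes were called, 18.7% higher and 19.4% lower, and 31 of the 48 had an unadjusted p below 0.05, beside 48.6% of all genes. With MI-2 31 rose and 1 fell (66.7% called), beside 41.4% of all genes, 20.2% higher and 21.2% lower, and 36 had an unadjusted p below 0.05, beside 50.8% of all genes. With iBET 1 rose and 10 fell (22.9% called), beside 13.9% of all genes, 6.38% higher and 7.54% lower. The 10 were Clec12a, Nlrp12, Clec4a2, Clec4a3, Tlr1, Clec2d, Cd14, Tlr6, Clec3a and Nlrp1b. With MM-401 no member was called, and 0% of all genes were.

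The median log2 fold change of the tested members was 1.28 with EPZ, 1.63 with MI-2, -0.58 with iBET and 0.11 with MM-401, beside -0.06, -0.05, -0.04 and -0.01 over all genes tested. These comparisons share the DMSO libraries. Without DMSO replicate 2, EPZ gave 27 members higher and 3 lower, MI-2 30 higher and 1 lower, iBET 3 higher and 11 lower, and MM-401 none, of 50 members tested, while 35.5%, 37.6%, 21.6% and 0% of all genes were called. DESeq2 on all libraries called 26 members higher and 4 lower with EPZ, 31 and 2 with MI-2, and 1 and 15 with iBET, beside 41.7%, 44.6% and 21.8% of all genes. When each of the 10 libraries was left out in turn, 15 of the 28 members called for EPZ passed in every fit, as did 16 of the 32 called for MI-2, but only 2 of the 11 called for iBET. Over all genes, too, far fewer were called with iBET without either iBET library. The share of all called genes that passed in every fit was not worked out, so these counts are not read as particular to the members. The 4 EPZ and MI-2 libraries lay above the other 6 for 28 of the 48 tested members (58.3%), where 18.6% of all genes showed this order, and below them for none, where 19% of all genes did. Both iBET libraries lay below the other 8 for 18 members (37.5%, beside 10.6% of all genes) and above them for none (beside 11.6%).

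**Figure D2:**
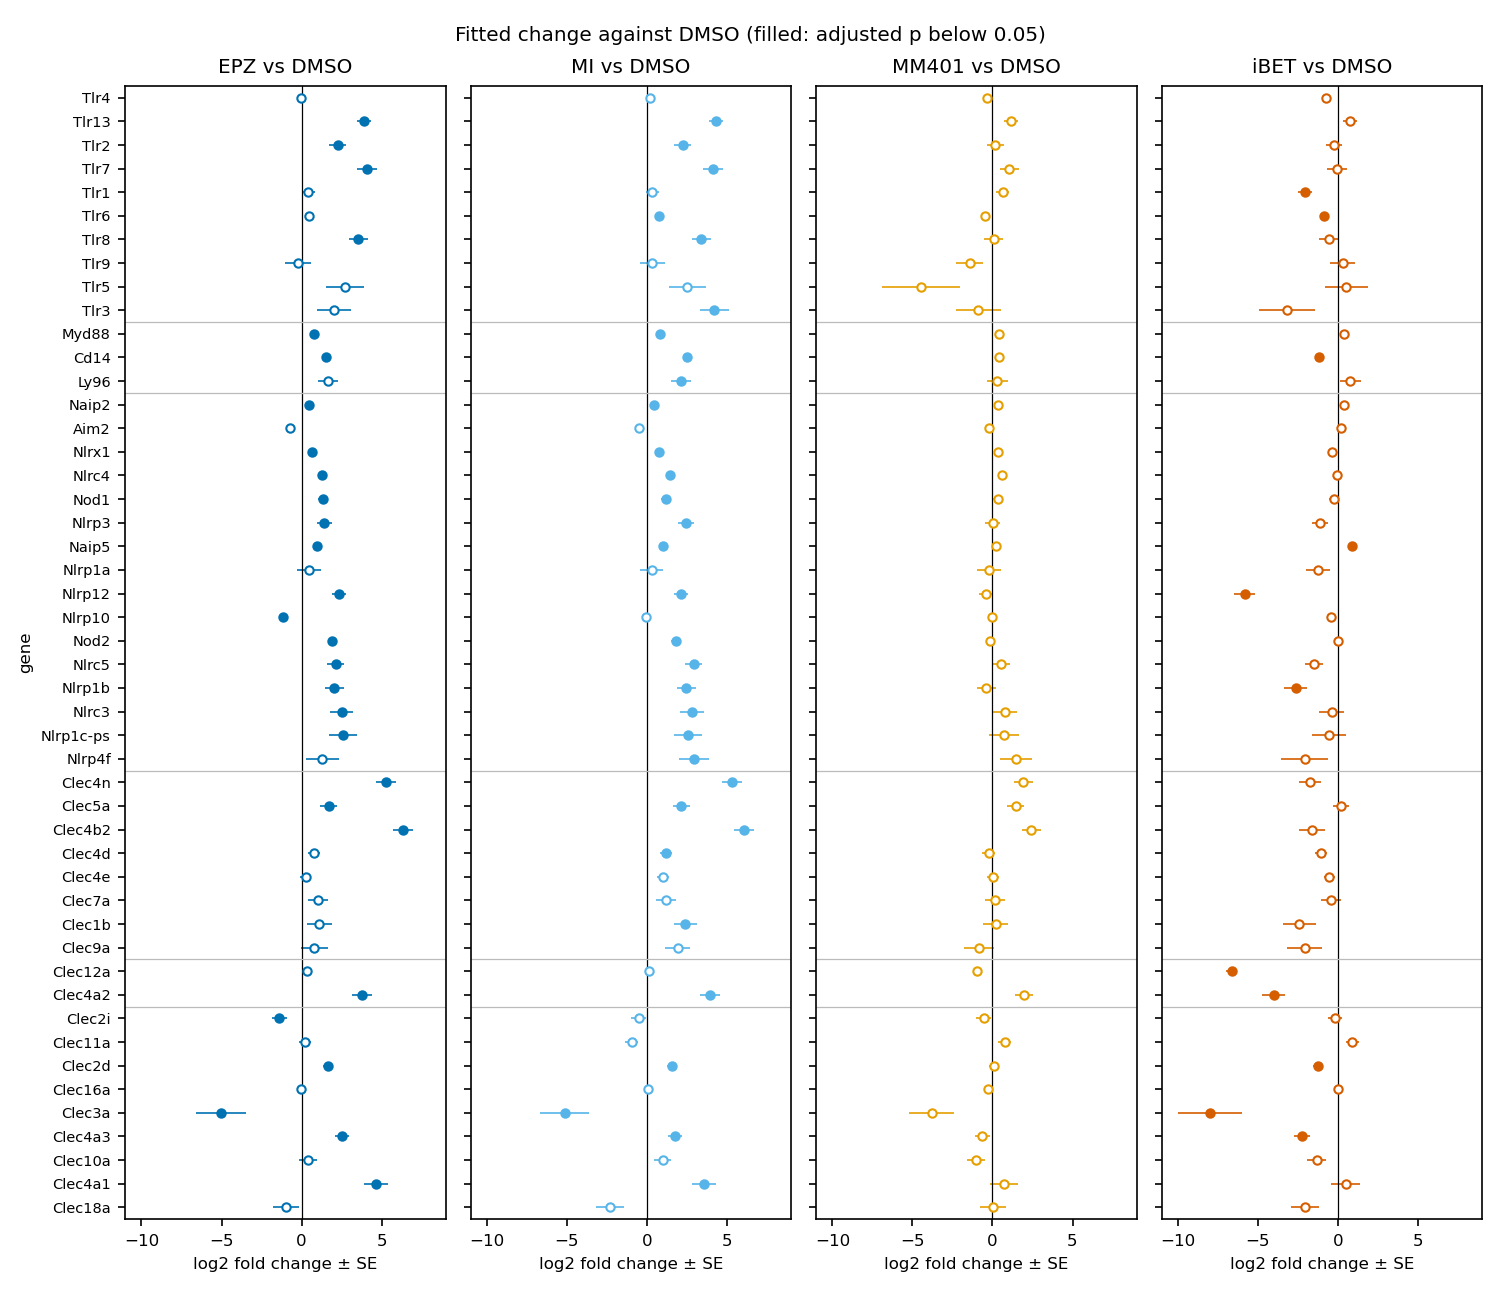
Log2 fold change against DMSO (x axis, with bars of 1 standard error) of each tested member (y axis) for the 4 inhibitors, where filled circles passed an adjusted p of 0.05 in edgeR. Filled circles lie right of 0 for 25 members with EPZ and 31 with MI-2, left of 0 for 10 with iBET, and there are none with MM-401.

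Of the 10 Toll-like receptors 4 rose with EPZ (40% called, beside 38.1% of all genes), 6 rose with MI-2 (60%, beside 41.4%) and 2 fell with iBET (20%, beside 13.9%). Among the 4 called with EPZ, the largest rises were those of Tlr7, Tlr13 and Tlr8. Tlr13, the mouse endosomal receptor of bacterial ribosomal RNA, stood at 7.13 and 7.67 normalised CPM with DMSO, 15.5 and 17.3 with MM-401, 71.8 and 151 with EPZ, 98.2 and 195 with MI-2, and 10.4 and 14.6 with iBET. Tlr7, the endosomal receptor of single-stranded RNA, stood at 2.45 and 3.16 with DMSO, 4.65 and 7.06 with MM-401, 32.8 and 62.8 with EPZ, 27.9 and 71.4 with MI-2, and 1.55 and 3.83 with iBET. For both genes the 4 EPZ and MI-2 libraries lay above the other 6 without overlap, and within EPZ and MI-2 the second library was the higher. Tlr13 rose 15.0-fold with EPZ (log2 fold change 3.91 ± 0.45 SE, adjusted p = 0.000956) and 19.8-fold with MI-2 (4.31 ± 0.46, adjusted p = 0.000737). Tlr7 rose 17.0-fold with EPZ (4.09 ± 0.62, adjusted p = 0.00242) and 17.7-fold with MI-2 (4.15 ± 0.63, adjusted p = 0.00216). Neither was called with iBET or MM-401.

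Tlr8, a relative of Tlr7 named here after its values were seen, was scarcer, with 14 and 18 reads with DMSO, 14 and 21 with MM-401, 120 and 224 with EPZ, 93 and 291 with MI-2, and 8 and 15 with iBET. It rose by 3.54 ± 0.60 on the log2 scale with EPZ (adjusted p = 0.00351) and by 3.38 ± 0.60 with MI-2 (adjusted p = 0.00385), and like Tlr7 and Tlr13 it passed in every fit without 1 library. Tlr9, the receptor of CpG DNA and also endosomal, was called in none of the comparisons with DMSO. Its levels were 0.545 and 2.97 normalised CPM with DMSO, 0.465 and 0.840 with MM-401, 1.26 and 1.74 with EPZ, 1.56 and 2.81 with MI-2, and 1.15 and 3.14 with iBET. The range of the DMSO libraries covered that of every inhibitor group but MM-401, in which 1 library was lower, and iBET, in which 1 was higher. The interval of its log2 change with EPZ ran from -2.06 to 1.64.

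Receptors of bacterial lipids and lipoproteins moved unequally. Tlr2, which senses lipoproteins, stood at 7.28 and 24.3 normalised CPM with DMSO, 18.1 and 17.6 with MM-401, 67.8 and 81.8 with EPZ, 48.2 and 98.5 with MI-2, and 11.6 and 14.9 with iBET. Despite the gap between the DMSO libraries, all EPZ and MI-2 values lay above all others, and Tlr2 rose 4.76-fold with EPZ (log2 2.25 ± 0.54, adjusted p = 0.0135) and 4.67-fold with MI-2 (2.22 ± 0.53, adjusted p = 0.0128). The call was lost without EPZ replicate 2 (2.11, adjusted p = 0.0631) and without MI-2 replicate 2 (1.62, adjusted p = 0.0832), and without DMSO replicate 2 the values were 3.38 and 3.36.

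Tlr1 and Tlr6, the partners of TLR2 in lipoprotein binding, fell with iBET. Tlr1 stood at 16.1 and 7.43 normalised CPM with DMSO, 17.6 and 19.5 with MM-401, 14.7 and 16.7 with EPZ, 13.1 and 16.3 with MI-2, and 1.81 and 3.83 with iBET. Both iBET libraries were below the other 8, and the fall was 4.16-fold (log2 -2.06 ± 0.44, adjusted p = 0.0222). Tlr6 stood at 12.6 and 10.7 with DMSO, 9.13 and 7.69 with MM-401, 15.5 and 17.2 with EPZ, and 5.83 and 7.003 with iBET (-0.86 ± 0.20, adjusted p = 0.0293), and at 17.9 and 20.6 with MI-2, where it rose (0.72 ± 0.20, adjusted p = 0.0205). Without iBET replicate 1 or 2 the adjusted p of Tlr1 was 0.132 and 0.0578, and that of Tlr6 was 0.186 and 0.109. The call of Tlr6 with iBET was also lost without either MM-401 library (adjusted p = 0.0588 and 0.0584) or either MI-2 library (0.0522 and 0.0534), and its call with MI-2 without either MI-2 library (0.0505 and 0.122).

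Tlr4, the lipopolysaccharide receptor, had the highest level per kilobase of exon among the Toll-like receptors (17.7 normalised CPM per kb over the 10 libraries, followed by Tlr13 at 13.7 and Tlr2 at 12.9), yet edgeR called it in none of the 4 comparisons with DMSO. It stood at 131 and 85.5 normalised CPM with DMSO, 94.1 and 80.0 with MM-401, 94.4 and 121 with EPZ, 111 and 134 with MI-2, and 76.1 and 54.0 with iBET. The EPZ, MI-2 and MM-401 ranges overlapped that of DMSO, while both iBET values lay below it (log2 -0.74 ± 0.25, adjusted p = 0.0884 in edgeR and 0.0323 in DESeq2). Without DMSO replicate 2 the iBET value was -1.01 (adjusted p = 0.0235), and without DMSO replicate 1 it was -0.39 (0.262). The interval of the change with EPZ was -0.59 to 0.57.

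Genes that work with TLR4 changed where the receptor gene itself was not called. Cd14, the surface coreceptor that hands lipopolysaccharide to TLR4, stood at 19.0 and 13.4 normalised CPM with DMSO, 24.6 and 19.3 with MM-401, 46.3 and 48.5 with EPZ, 87.2 and 99.1 with MI-2, and 8.35 and 5.93 with iBET. The groups with EPZ, MI-2 and iBET did not overlap with each other or with DMSO. Cd14 rose 2.92-fold with EPZ (log2 1.55 ± 0.23, adjusted p = 0.00225) and 5.74-fold with MI-2 (2.52 ± 0.24, adjusted p = 0.00061), in every fit without 1 library, and fell 2.27-fold with iBET (-1.19 ± 0.24, adjusted p = 0.0185). The iBET call was lost without either iBET library (-1.45, adjusted p = 0.0566, and -0.95, adjusted p = 0.130).

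Ly96, whose product MD-2 binds lipopolysaccharide beside TLR4, was low, at 0.506 and 0.671 normalised CPM with DMSO, 0.550 and 0.882 with MM-401, 1.16 and 2.54 with EPZ, 1.39 and 3.80 with MI-2, and 0.751 and 1.26 with iBET, where 1 EPZ library lay below the higher iBET library. It was called with MI-2 (log2 2.14 ± 0.64, adjusted p = 0.0293) but not with EPZ (1.65 ± 0.64, adjusted p = 0.0745), and the MI-2 call was lost without DMSO replicate 1 (adjusted p = 0.0787), DMSO replicate 2 (0.0553) or MI-2 replicate 2 (0.214). Myd88, the adaptor of most Toll-like receptors, stood at 42.2 and 57.7 with DMSO, 62.4 and 71.8 with MM-401, 77.4 and 95.6 with EPZ, 78.0 and 100 with MI-2, and 58.8 and 71.5 with iBET. It rose by 0.79 ± 0.21 on the log2 scale with EPZ (adjusted p = 0.0196) and by 0.83 ± 0.21 with MI-2 (adjusted p = 0.0146). The EPZ call was lost without DMSO replicate 1 (0.59, adjusted p = 0.0530) or EPZ replicate 2 (0.64, 0.111), and the MI-2 call without MI-2 replicate 2 (0.65, 0.0978). Exons of Myd88 share 290 bases with Acaa1a on the opposite strand, and whether reads were counted by strand is not given in the sources used here.

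**Figure D3:**
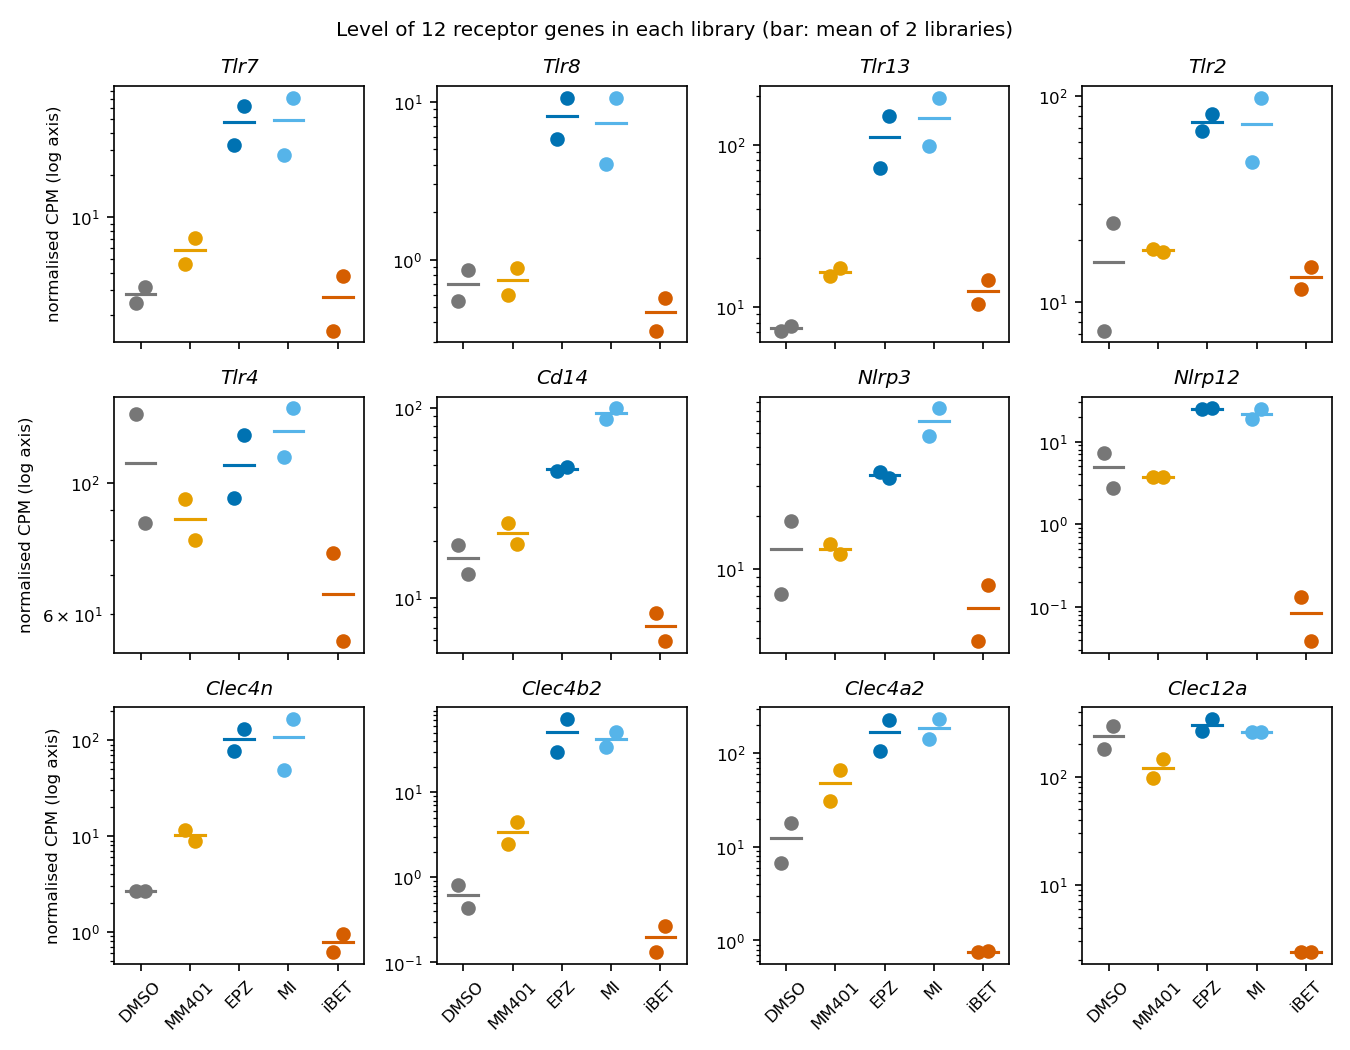
Normalised CPM (y axis, log scale, a separate range in each panel) of 12 members in each library (points) under the 5 treatments (x axis), with bars at the mean of 2 libraries. Tlr7, Tlr8, Tlr13, Clec4n, Clec4b2 and Clec4a2 are higher in all 4 EPZ and MI-2 libraries than in any other, Clec12a is at 2.39 and 2.37 with iBET and at 97.1 or more elsewhere, and the Tlr4 panel spans the narrowest range.

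Of 16 tested NOD-like receptor genes with Aim2, 12 rose and 1 fell with EPZ, 13 rose with MI-2, and 1 rose and 2 fell with iBET. These were 81.2%, 81.2% and 18.8% called, beside 38.1%, 41.4% and 13.9% of all genes, and the median log2 fold changes were 1.31, 1.60 and -0.40. The cytosolic sensors of peptidoglycan rose. Nod1 stood at 40.2 and 22.4 normalised CPM with DMSO, 41.8 and 37.9 with MM-401, 71.9 and 84.3 with EPZ, 77.4 and 66.5 with MI-2, and 32.3 and 20.5 with iBET. Nod2 stood at 2.998 and 2.40 with DMSO, 2.96 and 1.93 with MM-401, 11.1 and 9.51 with EPZ, 9.67 and 8.99 with MI-2, and 2.96 and 2.53 with iBET. Both had their 4 highest values in the EPZ and MI-2 libraries. Nod2 rose 3.80-fold with EPZ (log2 1.93 ± 0.29, adjusted p = 0.00222) and 3.45-fold with MI-2 (1.79 ± 0.29, adjusted p = 0.00266). Nod1 rose 2.49-fold with EPZ (1.32 ± 0.30, adjusted p = 0.0112) and 2.30-fold with MI-2 (1.20 ± 0.30, adjusted p = 0.0146), calls that were lost without EPZ replicate 2 (1.20, adjusted p = 0.0635) and MI-2 replicate 1 (1.09, adjusted p = 0.0696).

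The NAIP and NLRC4 genes, whose products form an inflammasome on bacterial flagellin and secretion proteins, showed small spreads between duplicates. Nlrc4 stood at 30.1 and 30.6 normalised CPM with DMSO, 41.8 and 50.1 with MM-401, 69.2 and 77.4 with EPZ, 75.4 and 87.2 with MI-2, and 28.1 and 31.1 with iBET. It rose 2.42-fold with EPZ (log2 1.27 ± 0.14, adjusted p = 0.000824) and 2.68-fold with MI-2 (1.42 ± 0.14, adjusted p = 0.000638). Naip5, the flagellin sensor, was the only member called higher with iBET. It stood at 21.7 and 20.5 with DMSO, 24.5 and 24.0 with MM-401, 41.3 and 41.0 with EPZ, 38.4 and 45.3 with MI-2, and 38.2 and 38.5 with iBET, so the EPZ, MI-2 and iBET libraries all lay above the DMSO and MM-401 libraries. Naip5 rose by 0.96 ± 0.13 with EPZ (adjusted p = 0.00154), by 0.99 ± 0.13 with MI-2 (adjusted p = 0.0013) and by 0.86 ± 0.13 with iBET (adjusted p = 0.00792). The iBET call was lost without iBET replicate 1 (0.87, adjusted p = 0.0560) or 2 (0.86, 0.0618). Naip2, at 72.1 and 87.6 with DMSO and 99.2 to 117 in the EPZ and MI-2 libraries, gave 0.44 ± 0.14 for both inhibitors (adjusted p = 0.0439 and 0.0412). It kept the EPZ call only without DMSO replicate 2 and the MI-2 call only without that library or either EPZ library. Reads of the closely related Naip2 and Naip5 may have been split in counting.

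Nlrp3, the sensor of the best studied inflammasome, stood at 7.20 and 18.8 normalised CPM with DMSO, 13.8 and 12.2 with MM-401, 35.7 and 33.0 with EPZ, 57.9 and 83.0 with MI-2, and 3.85 and 8.07 with iBET. The MI-2 libraries were the highest and the EPZ libraries next, without overlap. Nlrp3 rose 5.43-fold with MI-2 (log2 2.44 ± 0.48, adjusted p = 0.0059) in every fit without 1 library. The rise of 2.65-fold with EPZ (1.41 ± 0.47, adjusted p = 0.0461) passed only without DMSO replicate 2 or either iBET library and ranged from 0.87 to 2.28. Nlrx1, which encodes a mitochondrial member, stood at 63.0 and 72.7 with DMSO, 82.1 and 87.6 with MM-401, 99.2 and 113 with EPZ, 111 and 121 with MI-2, and 53.9 and 49.3 with iBET. It rose by 0.65 ± 0.12 with EPZ (adjusted p = 0.0059) and by 0.77 ± 0.12 with MI-2 (adjusted p = 0.00276), and its exons share 683 bases with Gm10686 on the opposite strand.

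Nlrp12, which encodes a NOD-like receptor known to restrain NF-kB signals in myeloid cells, had the largest fall with iBET in this class. It was covered by 185 and 57 reads with DMSO, 89 and 88 with MM-401, 511 and 536 with EPZ, 434 and 674 with MI-2, and 3 and 1 with iBET. In normalised CPM these were 7.20 and 2.73, 3.76 and 3.70, 24.8 and 25.2, 18.8 and 24.6, and 0.133 and 0.0383. The iBET values lay below and the EPZ and MI-2 values above those of the other groups. Nlrp12 fell 56.9-fold with iBET (log2 -5.83 ± 0.65, adjusted p = 0.00313) and rose 5.01-fold with EPZ (2.32 ± 0.43, adjusted p = 0.0051) and 4.35-fold with MI-2 (2.12 ± 0.43, adjusted p = 0.00652). All 3 calls held in every fit without 1 library. Without DMSO replicate 2 they were -6.36, 1.82 and 1.63. The iBET level rests on 4 reads, and the annotated exons of Nlrp12 overlap microRNA genes of the Mir290 cluster.

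Aim2 and Nlrp10 stood lower with EPZ. Aim2, the cytosolic DNA sensor, stood at 46.2 and 76.6 normalised CPM with DMSO, 49.97 and 54.6 with MM-401, 32.0 and 41.9 with EPZ, 38.1 and 47.6 with MI-2, and 64.9 and 75.0 with iBET. Both EPZ values were below both DMSO values, at the edge of the threshold (log2 -0.73 ± 0.25, adjusted p = 0.0508), and the value was -1.05 (adjusted p = 0.00386) without DMSO replicate 1 but -0.30 (0.259) without DMSO replicate 2. Nlrp10, a member without leucine-rich repeats, stood at 6.89 and 6.42 with DMSO, 7.69 and 5.34 with MM-401, 2.96 and 3.06 with EPZ, 5.98 and 6.76 with MI-2, and 4.24 and 5.78 with iBET. It fell 2.21-fold with EPZ (-1.14 ± 0.28, adjusted p = 0.0148), a call lost without EPZ replicate 1 (-1.12, adjusted p = 0.0703) or 2 (-1.17, adjusted p = 0.0711). Nlrp10 did not pass with MI-2 (-0.06 ± 0.27, adjusted p = 0.867).

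C-type lectins coupled to ITAM signals included the largest rises among the members. Of 8 tested, 3 rose with EPZ (37.5%, beside 38.1% of all genes) and 5 with MI-2 (62.5%, beside 41.4%), and edgeR called none with iBET, where DESeq2 called Clec4n and Clec4d lower. Clec4n encodes Dectin-2, a receptor of fungal mannans. It stood at 2.69 and 2.68 normalised CPM with DMSO, 11.6 and 8.91 with MM-401, 76.5 and 130 with EPZ, 49.4 and 167 with MI-2, and 0.619 and 0.957 with iBET. Clec4b2, a neighbouring lectin gene whose promoter is shown, was covered by 21 and 9 reads with DMSO, 58 and 106 with MM-401, 611 and 1542 with EPZ, 782 and 1406 with MI-2, and 3 and 7 with iBET. For both genes the order was the same, with iBET lowest, then DMSO, MM-401, and the EPZ and MI-2 libraries highest, and no value of these 4 levels overlapped. Clec4n rose 38.4-fold with EPZ (log2 5.26 ± 0.62, adjusted p = 0.00102) and 40.2-fold with MI-2 (5.33 ± 0.62, adjusted p = 0.000923). Clec4b2 rose 79.8-fold with EPZ (6.32 ± 0.62, adjusted p = 0.00063) and 66.5-fold with MI-2 (6.06 ± 0.62, adjusted p = 0.000676). All 4 calls held in every fit without 1 library. Against DMSO, iBET gave -1.75 ± 0.69 for Clec4n (adjusted p = 0.123) and -1.61 ± 0.80 for Clec4b2, and Clec4n passed without MI-2 replicate 1 (adjusted p = 0.0345) or 2 (0.0334).

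Other lectins of this group changed less. Clec5a, which couples to DAP12 and binds dengue virus, stood at 30.3 and 49.0 normalised CPM with DMSO, 86.7 and 131 with MM-401, 65.5 and 190 with EPZ, 122 and 228 with MI-2, and 39.2 and 51.5 with iBET. The DMSO and iBET libraries were the 4 lowest. It rose 4.42-fold with MI-2 (log2 2.14 ± 0.53, adjusted p = 0.0148), a call lost without MI-2 replicate 2 (1.63, adjusted p = 0.0903), and 3.23-fold with EPZ (1.69 ± 0.53, adjusted p = 0.0373), a call kept only without DMSO replicate 2, EPZ replicate 1 or either MI-2 library and ranging from 0.73 to 2.27. Clec7a, which encodes the beta-glucan receptor Dectin-1, stood at 13.6 and 26.0 with DMSO, 18.3 and 25.2 with MM-401, 27.3 and 51.6 with EPZ, 23.4 and 66.5 with MI-2, and 8.09 and 21.0 with iBET. The MM-401, MI-2 and iBET ranges overlapped that of DMSO, while both EPZ values lay above it. The log2 change of Clec7a with EPZ was 1.00 ± 0.62 (adjusted p = 0.237 in edgeR).

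Clec4d and Clec4e encode MCL and Mincle, which pair to bind mycobacterial glycolipids. Clec4d stood at 26.2 and 15.7 normalised CPM with DMSO, 19.9 and 15.5 with MM-401, 31.0 and 40.0 with EPZ, 30.8 and 63.4 with MI-2, and 8.49 and 11.7 with iBET. It rose with MI-2 (log2 1.17 ± 0.38, adjusted p = 0.0414), a call kept only without DMSO replicate 1 or MI-2 replicate 1, and its value without 1 library ranged from 0.56 to 1.60. Clec4e stood at 83.1 and 34.3 with DMSO, 69.4 and 50.9 with MM-401, 76.5 and 64.0 with EPZ, 113 and 123 with MI-2, and 41.2 and 40.4 with iBET. The DMSO range covered the MM-401, EPZ and iBET values, and MI-2 gave 1.01 ± 0.36 (adjusted p = 0.0529 in edgeR and 0.0118 in DESeq2). The DMSO libraries decided these calls: without DMSO replicate 1 Clec4e was called higher with EPZ (1.04, adjusted p = 0.00479), MI-2 (1.79, 0.000472) and MM-401 (0.81, 0.0468), and without DMSO replicate 2 it was called lower with iBET (-1.03, 0.0126).

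Clec4 genes lie side by side on mouse chromosome 6, in the order Clec4a1, Clec4a3, Clec4a4, Clec4b1, Clec4a2, Clec4b2, Clec4n, Clec4d and Clec4e in GRCm38.p6, and 7 of them were tested. Along this order the log2 changes with EPZ were 4.65, 2.52, 3.76, 6.32, 5.26, 0.76 and 0.26, and with MI-2 3.56, 1.73, 3.92, 6.06, 5.33, 1.17 and 1.01. The first 5 tested genes were called with both inhibitors. The last pair, Clec4d and Clec4e, had higher levels with DMSO (13.1 and 11.8 normalised CPM per kb) than Clec4n and Clec4b2 (1.89 and 0.532). Clec4a1, named after its values were seen, rested on 1 and 3 reads with DMSO, 63 and 34 with EPZ, and 30 and 24 with MI-2. Whether reads shared between these similar genes were counted for 1, for several or for none is not given in the sources used here.

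**Figure D4:**
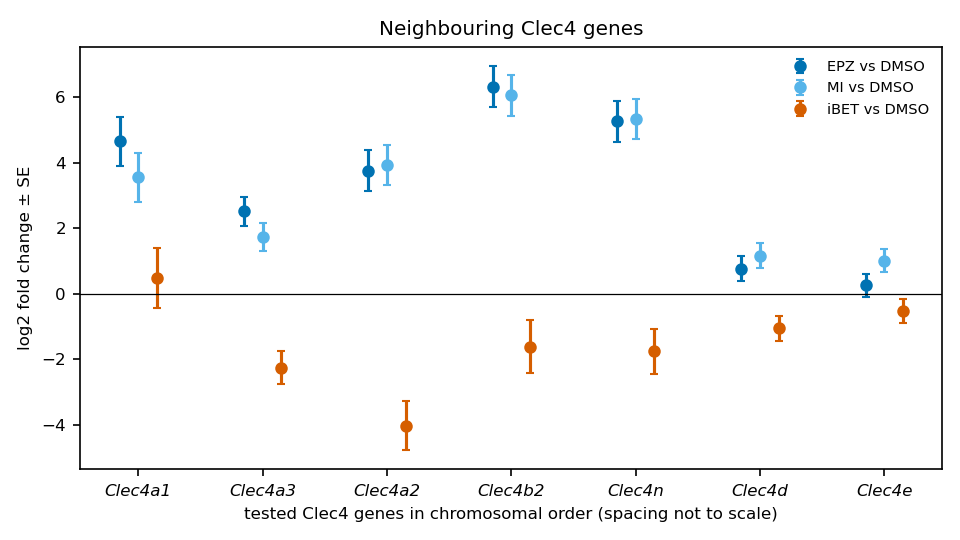
Log2 fold change against DMSO (y axis, with bars of 1 standard error) of 7 neighbouring Clec4 genes, placed in chromosomal order but not to scale (x axis), for EPZ, MI-2 and iBET. The EPZ and MI-2 values lie between 1.73 and 6.32 from Clec4a1 to Clec4n and between 0.26 and 1.17 for Clec4d and Clec4e, and the iBET values are below 0 for 6 of the 7 genes.

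Both tested lectins with an inhibitory motif fell with iBET, where 13.9% of all genes were called and 7.54% were called lower. With only 2 genes tested, this does not describe such lectins as a group. Clec12a, which encodes an ITIM receptor of uric acid crystals found on myeloid and acute myeloid leukemia cells, had the highest level per kilobase of all members (33.4 normalised CPM per kb over the 10 libraries). It stood at 179 and 297 normalised CPM with DMSO, 97.1 and 145 with MM-401, 266 and 343 with EPZ, 260 and 257 with MI-2, and 2.39 and 2.37 with iBET. The iBET duplicates were nearly equal and far below the other 8 libraries. In reads these were 4593 and 6198 with DMSO against 54 and 62 with iBET. Clec12a fell 99.8-fold with iBET (log2 -6.64 ± 0.35, adjusted p = 0.000334), and values without 1 library ranged from -6.96 to -6.23, all called. EPZ (0.36 ± 0.27, adjusted p = 0.319) and MI-2 (0.12 ± 0.27, adjusted p = 0.741) did not pass. With EPZ the value was 0.79 (adjusted p = 0.0365) without DMSO replicate 2.

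Clec4a2, which encodes the ITIM receptor DCIR, stood at 6.74 and 18.2 normalised CPM with DMSO, 31.3 and 66.0 with MM-401, 107 and 228 with EPZ, 142 and 233 with MI-2, and 0.751 and 0.765 with iBET. The groups followed 1 order without overlap except between EPZ and MI-2, whose values lay highest. It rose 13.5-fold with EPZ (log2 3.76 ± 0.61, adjusted p = 0.00302) and 15.1-fold with MI-2 (3.92 ± 0.62, adjusted p = 0.00249), in every fit without 1 library. It fell 16.2-fold with iBET (-4.02 ± 0.74, adjusted p = 0.0142), a call lost without iBET replicate 1 (adjusted p = 0.103) or 2 (-4.03, 0.108).

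Of 9 tested genes named Clec outside these groups, 3 rose and 2 fell with EPZ, 3 rose and 1 fell with MI-2, and 3 fell with iBET. These were 55.6%, 44.4% and 33.3% called, beside 38.1%, 41.4% and 13.9% of all genes. The median log2 fold changes were 0.22, 0.05 and -1.26. Clec4a3, Clec4a1 and Clec2d were the 3 that rose with both EPZ and MI-2. Clec4a3, a relative of Clec4a2, stood at 0.896 and 1.49 normalised CPM with DMSO, 0.803 and 0.714 with MM-401, 6.06 and 7.58 with EPZ, 2.73 and 5.15 with MI-2, and 0.177 and 0.306 with iBET. It rose by 2.52 ± 0.44 with EPZ (adjusted p = 0.00414) and by 1.73 ± 0.44 with MI-2 (adjusted p = 0.0154, lost without MI-2 replicate 2 at 0.112), and fell with iBET (-2.26 ± 0.51, adjusted p = 0.026). The iBET call was lost without DMSO replicate 2, either MM-401 library or either iBET library, at adjusted p = 0.0515 to 0.165. Clec2d, which encodes a ligand of the natural killer receptor NKR-P1, stood at 9.42 and 5.13 with DMSO, 7.86 and 7.44 with MM-401, 22.7 and 23.1 with EPZ, 22.2 and 20.1 with MI-2, and 3.58 and 2.53 with iBET. The 4 EPZ and MI-2 libraries were the highest and both iBET libraries the lowest, without overlap. Clec2d rose by 1.65 ± 0.30 with EPZ (adjusted p = 0.00459) and by 1.53 ± 0.30 with MI-2 (adjusted p = 0.00554) and fell by 1.26 ± 0.30 on the log2 scale with iBET (adjusted p = 0.034), a call kept only without DMSO replicate 2.

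Clec2i, a relative of Clec2d, had the second highest level per kilobase over the 10 libraries among the members (32.0). It stood at 164 and 109 normalised CPM with DMSO, 107 and 79.6 with MM-401, 74.4 and 29.7 with EPZ, 125 and 65.9 with MI-2, and 141 and 99.4 with iBET, and fell with EPZ (log2 -1.39 ± 0.47, adjusted p = 0.0495), a call kept only without DMSO replicate 2 or EPZ replicate 1. Clec3a, known from cartilage, was called lower with EPZ, MI-2 and iBET, but its DMSO level came from 1 library: DMSO replicate 2 had 267 reads and DMSO replicate 1 had 6, beside 14 and 8 with MM-401, 5 and 3 with EPZ, 4 and 5 with MI-2, and 0 and 1 with iBET. Without DMSO replicate 2 the log2 changes were -0.26 with EPZ (adjusted p = 0.827), -0.35 with MI-2 (0.755) and -3.22 with iBET (0.0744). Clec2f, not tested, had 78 reads in the same DMSO library and 0 to 10 in the others. Clec11a, a secreted growth factor of blood cells, and Clec16a, a regulator of mitophagy that is no receptor, were called in none of the comparisons with DMSO. Clec2f was named after its values were seen. Clec16a stood at 23.9 and 44.7 with DMSO and 27.2 to 36.6 in the other libraries.

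MM-401 was the inhibitor with the smallest median change, and no member was called in edgeR, where the smallest adjusted p of a member was 0.292, while 11 of 48 had an unadjusted p below 0.05, beside 11.2% of all genes. DESeq2 called 5 members, Clec4b2, Clec4n, Clec4a2 and Nlrc4 higher and Clec12a lower, and 2.2% of all genes. The log2 changes of these genes in edgeR were 2.43 ± 0.59, 1.93 ± 0.57, 1.97 ± 0.58, 0.60 ± 0.14 and -0.98 ± 0.27. These 5 genes were picked by that call, so the lack of overlap between their MM-401 and DMSO ranges adds no support. Without DMSO replicate 1 the edgeR fit called 6 of 51 members tested, where 10.2% of all genes were called, including Clec12a (-1.29, adjusted p = 0.0142).

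EPZ and MI-2 were also compared with each other. No member was called in edgeR, and 0.0154% of all genes were (0.00771% higher and 0.00771% lower), while 4 members had an unadjusted p below 0.05, beside 7.22% of all genes, and DESeq2 called Cd14. Cd14 was lower with EPZ than with MI-2 (log2 -0.97 ± 0.23, 95% interval -1.50 to -0.45, adjusted p = 0.311 in edgeR and 0.0151 in DESeq2), as were Nlrp10 (-1.08, interval -1.72 to -0.44, adjusted p = 0.37) and Tlr3 (-2.20, interval -3.94 to -0.45, adjusted p = 0.568), and Clec11a was higher (1.18, interval 0.24 to 2.13, adjusted p = 0.564). These 4 genes were picked by their unadjusted p in this comparison, so the lack of overlap between their EPZ and MI-2 libraries adds no support. Tlr3, the receptor of double-stranded RNA, named after its values were seen, rested on 2 and 6 reads with EPZ and 14 and 32 with MI-2. For Tlr7 the EPZ and MI-2 ranges overlapped.

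The contrast of EPZ and MI-2 with the other inhibitors was tested directly. Against MM-401, the mean of EPZ and MI-2 was called higher for 27 members and lower for 1, Clec11a (58.3% called, beside 42.2% of all genes, 20.5% higher and 21.6% lower). Clec4b2 differed 13.5-fold (log2 3.76 ± 0.50, adjusted p = 0.00127), Clec4n 10.3-fold (3.36 ± 0.52, adjusted p = 0.00219) and Tlr13 7.80-fold (2.96 ± 0.40, adjusted p = 0.00133). Against iBET, the mean of EPZ and MI-2 was higher for 33 members and lower for 2, Aim2 and Clec11a (72.9% called, beside 45.7% of all genes, 21.9% higher and 23.8% lower). Nlrp12 differed 265-fold (8.05 ± 0.63, adjusted p = 0.000126), Clec4a2 232-fold (7.86 ± 0.77, adjusted p = 0.000279) and Clec12a 118-fold (6.88 ± 0.35, adjusted p = 3.61e-05). Tlr4, called by edgeR against DMSO with no inhibitor, was 1.77-fold higher here (0.82 ± 0.23, adjusted p = 0.0195), a call lost without EPZ replicate 2, MI-2 replicate 2 or iBET replicate 2.

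Between iBET and MM-401, 10 members were lower and 1 was higher with iBET (22.9% called, beside 11.4% of all genes, 5.48% higher and 5.96% lower). The higher gene was Naip5 (log2 0.66 ± 0.13, adjusted p = 0.018). Clec4a2 was 63.7-fold lower with iBET (-5.99 ± 0.75, adjusted p = 0.00473), Clec12a 50.7-fold (-5.66 ± 0.34, adjusted p = 0.000324) and Nlrp12 42.5-fold (-5.41 ± 0.65, adjusted p = 0.00429). Clec12a and Nlrp12 passed in all 10 fits without 1 library and Clec4a2 in 9, all but that without iBET replicate 2. These contrasts share libraries with those against DMSO.

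Genes of the receptor pathways and other cytosolic sensors were read from 5 lists without members. Some genes, such as Nfkbia and Il1b, are shared between lists, so the counts of the lists are not separate. Of 21 tested genes of C-type lectin signaling, 15 rose with EPZ, 16 with MI-2 and 6 with iBET, and none fell (71.4%, 76.2% and 28.6% called, beside 38.1%, 41.4% and 13.9% of all genes). Fcer1g, the ITAM chain of Dectin-2 and Mincle, rose by 1.45 ± 0.27 with EPZ (adjusted p = 0.00555), by 1.51 ± 0.28 with MI-2 (adjusted p = 0.00439) and by 1.34 ± 0.27 with iBET (adjusted p = 0.0196), from 176 and 176 normalised CPM with DMSO to between 354 and 608 in the EPZ, MI-2 and iBET libraries. Syk, the kinase bound to it, rose with EPZ (1.20 ± 0.16, adjusted p = 0.00149) and MI-2 (1.19 ± 0.16, adjusted p = 0.00141), as did Card9, the adaptor after it (0.66 ± 0.16, adjusted p = 0.0149, and 0.57 ± 0.16, adjusted p = 0.023). Card9 was not called with MM-401, yet stood at 268 and 292 there, beside 244 and 320 with EPZ, 248 and 284 with MI-2, and 166 and 191 with DMSO. With iBET, Fcer1g was called higher while Clec4n, which signals through it, stood at 0.619 and 0.957.

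Of 44 tested genes of the Toll-like receptor pathway, 16 rose and 3 fell with EPZ, 24 rose and 3 fell with MI-2, and 9 rose and 3 fell with iBET (43.2%, 61.4% and 27.3% called, beside 38.1%, 41.4% and 13.9% of all genes). Nfkbia, the NF-kB inhibitor, rose by 2.92 ± 0.23 with EPZ (adjusted p = 0.00038) and by 0.82 ± 0.22 with iBET (adjusted p = 0.0452). Irf7, the interferon regulatory factor after TLR7 and TLR9, rose with EPZ (3.50 ± 0.59, adjusted p = 0.00353) and iBET (2.84 ± 0.58, adjusted p = 0.0197). Unc93b1, the chaperone that carries endosomal Toll-like receptors, stood at 204 and 226 with DMSO, 351 and 340 with EPZ, and 122 and 166 with iBET, rising with EPZ (0.69 ± 0.15, adjusted p = 0.0107) and falling with iBET (-0.57 ± 0.15, adjusted p = 0.0456). Ticam2, the TRIF-related adaptor of TLR4, fell with EPZ (-1.07 ± 0.25, adjusted p = 0.0137), MI-2 (-1.16 ± 0.25, adjusted p = 0.00893) and iBET (-1.52 ± 0.26, adjusted p = 0.011). It was not called with MM-401, yet its MM-401 values of 9.89 and 7.73 normalised CPM were near those with EPZ (9.36 and 7.96) and MI-2 (7.67 and 8.55). With DMSO it stood at 17.1 and 19.1.

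Of 25 tested genes of the inflammasome and NOD pathway, 10 rose and none fell with EPZ, 13 rose and 1 fell with MI-2, and 1 rose and 1 fell with iBET (40%, 56% and 8% called, beside 38.1%, 41.4% and 13.9% of all genes). Pycard, the inflammasome adaptor ASC, rose with EPZ (0.93 ± 0.15, adjusted p = 0.00268) and MI-2 (0.85 ± 0.15, adjusted p = 0.0035), while Casp1, the protease it recruits, was not called with EPZ (0.27 ± 0.19, adjusted p = 0.297), MI-2 (0.53 ± 0.19, adjusted p = 0.0557) or iBET (0.67 ± 0.19, adjusted p = 0.0539). Its substrate Il1b stood at 0.234 and 0.959 normalised CPM with DMSO and 4.61 and 2.82 with EPZ (2.66 ± 0.62, adjusted p = 0.0129). Il1rn, the receptor antagonist, rose from 14.1 and 6.33 with DMSO to 165 and 230 with EPZ (4.27 ± 0.39, adjusted p = 0.000568) and fell to 3.54 and 4.21 with iBET (-1.40 ± 0.38, adjusted p = 0.0477).

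Of 20 tested NF-kB response genes, 10 rose and 1 fell with EPZ, 11 rose and 1 fell with MI-2, and 3 rose with iBET (55%, 60% and 15% called, beside 38.1%, 41.4% and 13.9% of all genes). Ccl2, a monocyte chemokine, stood at 0.156 and 0.767 with DMSO and 20.7 and 49.3 with EPZ (6.29 ± 0.91, adjusted p = 0.00201), and Tnf was higher with EPZ (1.53 ± 0.31, adjusted p = 0.0074) and iBET (1.21 ± 0.31, adjusted p = 0.0407). Of 12 tested cytosolic sensors of nucleic acids, 2 rose and 2 fell with EPZ, 4 rose with MI-2 and 1 rose with iBET (33.3%, 33.3% and 8.33% called, all below the shares of all genes). Ifi204, a relative of Aim2, rose with EPZ (3.49 ± 0.54, adjusted p = 0.00249), and Tmem173, which encodes STING, fell (-0.73 ± 0.23, adjusted p = 0.0373). With MM-401 no gene of the 5 lists was called, where 0% of all genes were.

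With EPZ and MI-2, markers of maturing myeloid cells rose as most called receptors did, and their part in the results was not tested. All 10 progenitor genes listed had reads, and 6 fell with EPZ, 6 with MI-2 and 2 with iBET, with sums of 10440 and 13730 normalised CPM with DMSO, 11600 and 12180 with MM-401, 3421 and 3867 with EPZ, 3276 and 2602 with MI-2, and 7516 and 6773 with iBET. The listed genes did not move together with iBET. Mpo stood at 386 and 4817 with DMSO and 14.6 and 16.1 with iBET, and Elane at 4195 and 4009, and 747 and 376. Ctsg stood at 2641 and 1226 with DMSO and 3594 and 3445 with iBET, Hoxa9 at 445 and 380, and 519 and 506, and Flt3 at 0.0389 and 1.39, and 2.56 and 3.21. All 13 neutrophil granule and surface genes rose with EPZ and MI-2 and 3 fell with iBET, and their summed levels were 3754 and 718 with DMSO, 4830 and 6314 with MM-401, 52110 and 70600 with EPZ, 47730 and 48990 with MI-2, and 1278 and 545 with iBET. Of 13 macrophage genes, 12 rose with EPZ and MI-2, and 1 rose and 1 fell with iBET. Their sums were 82.6 and 74.8 with DMSO, 125 and 114 with MM-401, 429 and 580 with EPZ, 417 and 880 with MI-2, and 74.5 and 113 with iBET. The neutrophil and macrophage sums, like Tlr13, Clec4n and Clec4b2, were highest with EPZ and MI-2. Dendritic cell markers summed to 132 and 242 with iBET and to between 22.2 and 63.2 elsewhere, and nearly all of this was 1 gene, Irf8, at 131.8 and 241.5 with iBET, while Itgax stood at 0.177 and 0.0765 there. Mast cell or basophil markers summed to at most 22.2 and megakaryocyte markers to at most 8.98. Endothelial and stromal markers summed to 44.1 in DMSO replicate 2, where Pecam1 alone stood at 43.7, and to at most 27.7 elsewhere. B cell markers summed to at most 8.24, with Ms4a1 and Pax5 at 0 reads, and erythroid markers to at most 1.32, with Hba-a1 and Hbb-b1 at 0 reads. T or natural killer cell markers summed to 69.9 in DMSO replicate 2, where Nkg7 alone stood at 65.7, and to at most 7.91 elsewhere, with Cd3e, Ncr1 and Gzmb at 0 reads in all libraries.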

How the data were processed

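Gene expression was measured by RNA sequencing (RNeasy Mini Kit, Illumina TruSeq) in MAF9 cells, with 10 libraries in 5 conditions assigned from their labels. The authors deposited read counts per gene for 24015 gene symbols, not normalized. The submitters' processing notes name TopHat2, Subread, DESeq and mm9, without roles or versions, and how reads matching several genes, or strand, were treated is not given in the sources used here. No read was counted again.

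Counts were modelled by edgeR 4.0.16 under R 4.3.3 (low-count filter filterByExpr, TMM factors, glmQLFit and glmQLFTest) in 1 fit of all 10 libraries with 1 coefficient per condition, which kept 12971 genes, and p-values were adjusted by Benjamini-Hochberg within each comparison at a threshold of 0.05. A standard error is the size of the log2 fold change divided by the square root of F. Normalised CPM are reads divided by the TMM-scaled library size, and levels per kb also by the exon length in the reference annotation. With 1 to 3 reads in a group no fitted fold is read as a bound. Alternatives were total-count scaling, DESeq2 1.42.0 (size factors alone, or its own test), no filter, at least 1 CPM in 2 libraries, a replicate block and leaving out each library. The fit was tested on simulated data.

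The members, gene lists and the rule for named genes were chosen with earlier results of these data known, so no count over them is independent support. Named members are the 6 with the highest level per kb in each class, 18 receptors listed by name, and the 8 smallest adjusted p per direction against DMSO. Pathway genes are up to 4 per list and direction with the smallest adjusted p with EPZ or iBET, and Fcer1g, Syk, Card9, Pycard, Casp1 and Il1b. Other genes were chosen after their values were seen. Some items are not reported here.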

Additional observations from a re-analysis of the deposited data

How the results depend on the processing

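Of 1757 alternative values of named members that were called, 1562 kept direction and call, 195 kept direction but not the call, and none reversed. Of 2587 values of those not called, 96 passed in the same direction, and 1 passed in the opposite direction: Clec16a with EPZ, -0.02 in all libraries, was 0.53 without DMSO replicate 2 (adjusted p = 0.0345) and -0.40 without DMSO replicate 1 (0.0482). DESeq2 called 5 members with MM-401 against DMSO and 1 between EPZ and MI-2, where edgeR called none. When 1 library was left out, the members called ranged from 16 to 30 for EPZ, 17 to 31 for MI-2, 2 to 15 for iBET and 0 to 6 for MM-401 against DMSO, stayed at 0 between EPZ and MI-2, and ranged from 14 to 36 for EPZ and MI-2 against MM-401, 25 to 42 against iBET, and 4 to 17 for iBET against MM-401. Counts moved over 1.5 times without EPZ replicate 2 (16, EPZ), MI-2 replicate 2 (17, MI-2), either iBET library (2, iBET), either MM-401 library (6, iBET), DMSO replicate 1 (6, MM-401), MM-401 replicate 1 or 2 (14 and 15, EPZ and MI-2 against MM-401), any MM-401 or iBET library (4, iBET against MM-401) and either DMSO library (17, the same). The share of all genes called moved with the library left out as well, so these counts do not describe the members alone. Without DMSO replicate 1 that share came near the share of members called with EPZ. A fit without 1 library leaves that condition with 1, assumed to vary like the others. Total-count scaling shifted the median of all genes from -0.06 to -0.23 with EPZ and from -0.05 to -0.20 with MI-2. It gave 22 members higher and 4 lower with EPZ, beside 42.9% of all genes called, and a member median of 1.11.

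Libraries share replicate numbers, but with 2 numbers and no label of a shared batch they were not treated as paired. Deviations of same-numbered libraries correlated at 0.303 to 0.704 over the 10 pairs of groups, across genes. With the replicate block, members called were 31 for EPZ, 35 for MI-2, 14 for iBET and 0 for MM-401 against DMSO, beside 47.6%, 50.6%, 23.8% and 0% of all genes. Between EPZ and MI-2 none was called, beside 0.0308% of all genes. For EPZ and MI-2, 34 members were called against MM-401 and 41 against iBET, beside 51.4% and 54.5% of all genes. For iBET against MM-401, 16 members were called, beside 19% of all genes. Members not called without the block but called with it included Clec7a with EPZ (1.00, adjusted p = 0.0137) and MI-2 (1.09, 0.00886), Ly96 with EPZ (1.56, 0.0128), Aim2 with EPZ (-0.71, 0.0076) and MI-2 (-0.49, 0.0282) and Clec4e with MI-2 (1.09, 0.0198). Depth limits Tlr3, Tlr5, Clec4a1, Nlrp4f and Nlrp1c-ps (a pseudogene by its name), with at most 5 reads in each DMSO library. Nlrp4f and Nlrp1c-ps are counted among the members called higher with MI-2, and Nlrp1c-ps also among those called higher with EPZ.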
